A study of Mus musculus with 9 samples.

Results

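H3K27me3, the trimethylated form of lysine 27 on histone H3, was compared on autosomes 1 to 19 between a male mouse pancreatic cancer line with Kdm6a (male WT, the reference), a male line without it (male KO) and a female line without it (female KO). All regions of the 3 deposited H3K27me3 lists on these chromosomes were taken, 73811 of the 185632 regions in the 9 lists of the series, with no filter. They were 26240 regions in WT, 28184 in male KO and 19387 in female KO. The other 6 lists hold H3K4me3 and H3K27ac of the same lines and served to describe the surroundings. The lines came from pancreas of animals with a mixed C57BL/6-SV129 background, were kept in F12/DMEM medium with EGF and were left untreated. The sources used here do not state how Kdm6a was deleted, the driver of the tumours, the age of the animals or whether a line is 1 clone. There was 1 chromatin immunoprecipitation library per line and mark, so the spread between replicates is unknown, no p-value was computed, and female KO differs from WT in sex as well as genotype. Genotype and tissue were taken from the labels, since lists of regions without gene names do not allow a check of Kdm6a or of pancreas markers.

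H3K27me3 is written by Polycomb repressive complex 2, whose catalytic subunit is EZH2, and is found over silenced genes, often as broad domains at developmental regulators. KDM6A, also called UTX, is a demethylase that removes it. The same lysine can carry an acetyl group instead (H3K27ac, a mark of active promoters and enhancers), so one histone tail cannot hold both. H3K4me3 marks promoters, and stretches with H3K4me3 and H3K27me3 together are called bivalent. No annotation of build mm9, on which the lists were made, was used here, so regions are given by position and not by gene.

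The lists differed in their reads, which bears on every comparison of covered length below. Library totals are not known, so sequencing depth, enrichment and a general change in the level of the mark cannot be told apart. Reads within autosomal regions numbered 2394056 in WT, 4804337 in male KO and 17976134 in female KO. Over the 101 Mb that held H3K27me3 in all 3 lists, the read density was 17.6, 23.1 and 67.1 reads per kb, which is 3.82 times the WT density in female KO and 1.31 times in male KO. Divided by these factors, the median region of the female KO list had 9.11 reads per kb, under the 5th percentile of WT regions (11.0 reads per kb). On this scale the female KO list reached regions fainter than most of those in the WT list. In male KO the scaled median was 12.6 reads per kb, against 14.8 in WT. A second set of KO lists, called depth-scaled here, therefore kept only KO regions with a scaled density of at least that WT percentile. It assumes an equal level of the mark in shared bins, so it cannot show a general rise or fall. The factors are ratios of read totals over shared bins. Among 3972 regions merged across the lists, with at least 5 kb of shared bins, the median ratio was lower. It was 3.20 in female KO and 1.25 in male KO, and scaling by it was not tested.

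H3K27me3 regions were wider in both KO lines than in WT. Their N50, the width such that regions at least this wide held 50% of the covered length, was 7.2 kb in WT, 11.8 kb in male KO (1.64 times WT) and 30.4 kb in female KO (4.22 times WT). Regions under 5 kb made up 64.2% of the WT list, 46.2% of the male KO list and 23.0% of the female KO list. Regions of 20 kb or more held 17.2, 32.7 and 62.5% of the covered length. In the class from 20 to 50 kb there were 709 regions over 19.8 Mb in WT, 1728 over 50.4 Mb in male KO and 2954 over 90.5 Mb in female KO. The class from 2 to 5 kb went the other way for female KO, with 15.1 Mb against 38.9 Mb in male KO and 41.0 Mb in WT. Depth-scaled lists did not bring the widths closer to WT, with N50 values of 56.6 kb in female KO and 14.6 kb in male KO, but that scaling drops faint regions, which are mostly narrow. The differences have no replicate check.

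**Figure D1:**
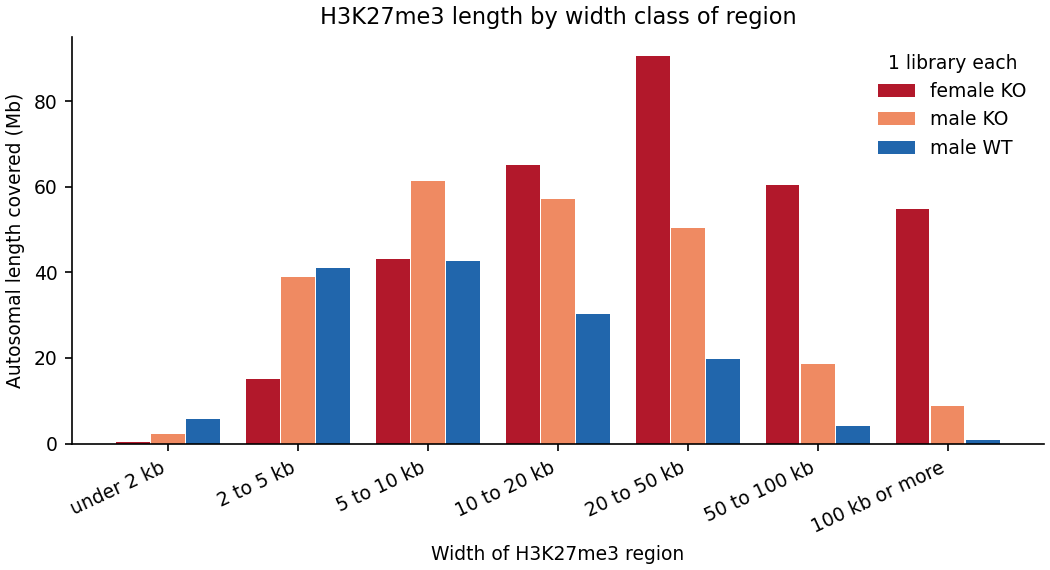
Autosomal length covered by H3K27me3 regions (Mb) in 7 classes of region width, 1 bar for each line's single library. WT length is concentrated between 2 and 20 kb, and female KO length peaks in the class from 20 to 50 kb at 90.5 Mb.

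The 3 widest regions of the WT list each met 1 region in each KO line, which covered them whole except for 0.2 kb of the second in male KO. The widest, on chromosome 15 from 102737201 to 102908400, covered 171.2 kb, with 30.0 reads per kb in WT, 39.7 in male KO and 110.3 in female KO. The KO values are means over the longer KO regions that hold it, so they are not densities of this span alone. In male KO this WT region was part of the widest region of that list, 350.6 kb on chromosome 15 from 102558201 to 102908800. Female KO covered that span without a gap, and WT had 11 regions over 331.0 kb of it. The next WT regions lay on chromosome 19 from 44784601 to 44915000 (130.4 kb) and on chromosome 6 from 52096601 to 52221400 (124.8 kb). The next male KO regions by width lay on chromosome 4 from 116962401 to 117224200, where WT had 22 regions over 118.4 kb, and on chromosome 15 from 74198201 to 74451600, where WT had 10 regions over 223.6 kb. Female KO had the widest region of all, 598.4 kb on chromosome 11 from 118292201 to 118890600. Male KO covered 573.4 kb of it in 12 regions and WT 494.6 kb in 30 regions. Its next 2 regions, on chromosome 9 from 45108801 to 45573600 and on chromosome 8 from 123199601 to 123628200, were likewise broken up in the other lines, into 16 and 5 regions in male KO and 33 and 29 in WT. At these 3 places male KO covered between 410.2 and 573.4 kb and WT between 360.6 and 494.6 kb. Most of the length was thus covered in each line, in fewer pieces in male KO than in WT. Female KO had 1 piece at each by the rule that chose the places.

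Wide regions were also denser, in every line. From the class of 2 to 5 kb to that of 100 kb or more, the median density rose from 30.2 to 75.9 reads per kb in female KO (345 regions in the widest class), from 15.4 to 30.2 in male KO (64 regions) and from 13.9 to 27.9 in WT (7 regions). These are 2.51, 1.96 and 2.0 times. Regions under 2 kb were denser than the next class, at 40, 19.4 and 16.4 reads per kb. The male KO median lay above WT in each of the 7 classes, but the ranges from the 25th to the 75th percentile overlapped in all of them. Those of female KO and WT overlapped in none, beside the 3.82 times higher read density over shared bins.

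**Figure D2:**
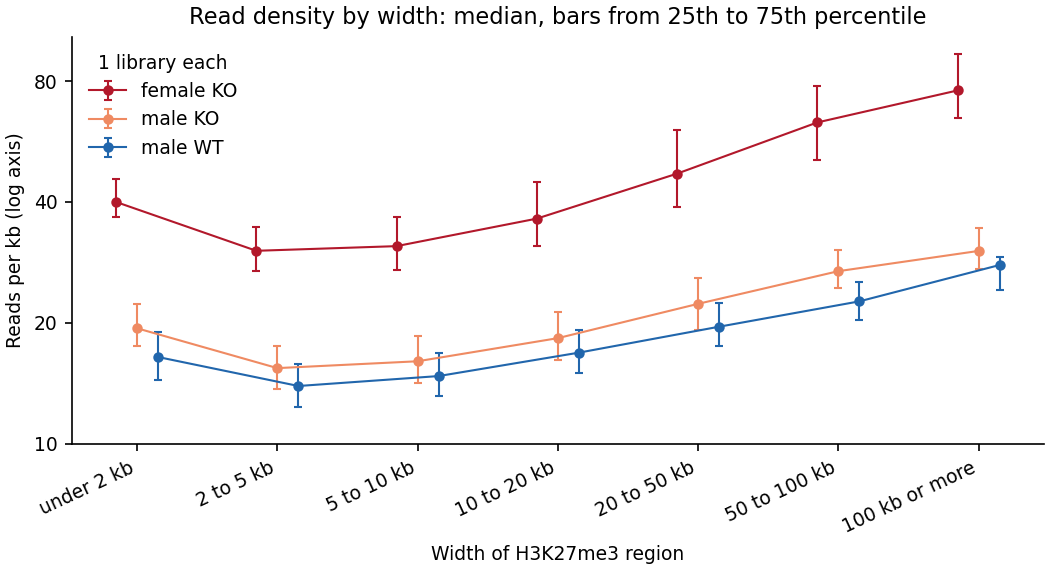
Reads per kb of H3K27me3 regions by width class on a log axis, with points at the median over the regions of 1 library and bars from the 25th to the 75th percentile. From the second class on, density rises with width in all 3 lines, and male KO lies just above WT.

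The densest regions of at least 5 kb were shared in WT and female KO, and partly private in male KO. The WT leaders lay on chromosome 15 from 76345201 to 76355800 (44.0 reads per kb), chromosome 11 from 118903001 to 118913800 (40.9) and chromosome 10 from 126960201 to 126974800 (39.2). Each was covered over its full length in both KO lists and carried H3K4me3 in all 3 lines. In female KO they lay on chromosome 15 from 98614601 to 98642000 (195.8 reads per kb), chromosome 17 from 56273601 to 56302000 (187.9) and chromosome 10 from 126509801 to 126531400 (185.0). All of these were also in the other lists and overlapped H3K4me3 in each line. In male KO the densest region was on chromosome 17 from 39979801 to 39985800, with 502.8 reads per kb against a 95th percentile of 26.3 in that list. WT had 244.2 reads per kb over 4.0 kb of it, and female KO had no region there. The second, on chromosome 11 from 3030601 to 3100000, had 129.2 reads per kb over 69.4 kb in male KO and no H3K27me3 region in the other lines. Neither overlapped H3K4me3 or H3K27ac in male KO. No control library and no annotation of repeated sequence was used here, so whether these extreme counts reflect the mark was not tested. The third, on chromosome 4 from 119908801 to 119982600, had 71.4 reads per kb, and H3K27ac covered 34.0 kb of its 73.8 kb in male KO and none in the other lines.

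Most WT regions were found again in each KO list, and those that were not were narrower and fainter at the median. Both comparisons use the same WT list, so a feature of that library enters both. Of the 26240 WT regions, 6496 had no overlap in male KO, which is 24.8% (95% Wilson interval 24.2 to 25.3%), and 6876 had none in female KO, 26.2% (25.7 to 26.7%). These intervals cover counting error only, and neighbouring regions are not independent. A further 11733 WT regions (44.7%) were covered over their whole length in male KO and 16412 (62.5%) in female KO. Absent regions were 2.6 kb wide at the median in both comparisons, against 4.2 kb for those present in male KO and 4.4 kb for those present in female KO. Absence fell with width, from 42.3% of the regions under 2 kb to 14.0% at 5 to 10 kb and 3.33% at 10 to 20 kb in male KO. In female KO these were 42.1, 13.3 and 3.28%. At 20 to 50 kb, 5 and 4 of 709 were absent, and at 50 to 100 kb 0 of 63 in both (Wilson upper limit 5.75%). A wide region meets an overlap of 1 bp more easily, so this fall is in part built into the measure. The share covered over the whole length, which is harder to reach for a wide region, was 45.9% under 2 kb in male KO. At 20 to 50 kb it was 52.2%. In female KO these were 53.7 and 89.8%. Absence also fell with WT density. Among the 20% of WT regions with the fewest reads per kb, 39.5% were absent from male KO and 48.3% from female KO. Among the 20% with the most, these were 14.1 and 11.3%. With depth-scaled KO lists, 33.5% of WT regions were absent from male KO and 55.2% from female KO, since that scaling removes KO regions only.

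Some WT regions with many reads were absent from a KO list. In male KO, the 3 with the most WT reads lay on chromosome 5 from 135907601 to 135942200 (490 reads), chromosome 1 from 168928801 to 168954200 (437 reads) and chromosome 1 from 134267801 to 134292000 (384 reads). The region from 135907601 held no H3K27ac or H3K4me3 in any line. Both chromosome 1 regions carried H3K27ac in the KO lines and none in WT, over 5.6 and 2.4 kb in male KO. In female KO, H3K27ac covered 4.6 and 5.2 kb of them. There, H3K27me3 was kept over 8.2 kb of the first and over all 24.2 kb of the second. In female KO, the region on chromosome 17 from 39979801 to 39983800 had 977 WT reads and no H3K27ac or H3K4me3 in any line. It lies within the densest male KO region, and whether its count reflects the mark was not tested. The next, on chromosome 1 from 122492201 to 122517000 (554 reads), was whole in male KO at 27.7 reads per kb. In female KO, H3K27ac and H3K4me3 each covered 15.6 of its 24.8 kb, against no H3K27ac and 7.4 kb of H3K4me3 in WT. The third, on chromosome 5 from 135979001 to 136011000 (538 reads), had no H3K27ac in WT, 7.8 kb in male KO and 14.8 kb in female KO.

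H3K27me3 outside the WT regions covered 126 Mb in male KO and 211 Mb in female KO, while 33.3 and 26.1 Mb of WT length was not covered. Of the male KO regions, 13572 (48.2%) overlapped no WT region, and of the female KO regions 10194 (52.6%). These regions without a WT counterpart were narrower and fainter than the rest. Their median width was 4.2 kb in male KO and 7.0 kb in female KO, against 7.2 and 13.0 kb for regions that met WT. Their median density was 15.5 and 32.9 reads per kb, against 17.8 and 38.2. Of the gained length, 44.2% in male KO and 51.5% in female KO lay inside regions that overlapped a WT region, as widening or bridging. The rest was in separate regions.

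The share of available length that was gained fell with distance from WT regions. Within 1 kb of a WT region, male KO H3K27me3 covered 50.5% of the length and female KO 60.7%. This fell to 31.7 and 44.3% at 1 to 5 kb, 18.4 and 29.9% at 5 to 10 kb, 8.43 and 15.5% at 10 to 50 kb, and 1.14 and 2.49% beyond 100 kb. Of all the gained length, 18.0, 26.3 and 12.1% lay in the first 3 of these classes in male KO and 12.9, 22.1 and 11.8% in female KO. Length beyond 100 kb, where most of the autosomes lie, made up 13.6 and 17.7% of the gain. Where 1 KO region matched 1 WT region, borders mostly lay further out in the KO list. In male KO, 62.4% of 15778 borders lay outside the WT border and 29.3% inside, with a median shift of 0.4 kb outward. In female KO, 76.3% of 9504 lay outside and 16.8% inside, with a median of 1.6 kb. Such regions were 1.36 and 2 times as wide as in WT at the median.

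**Figure D3:**
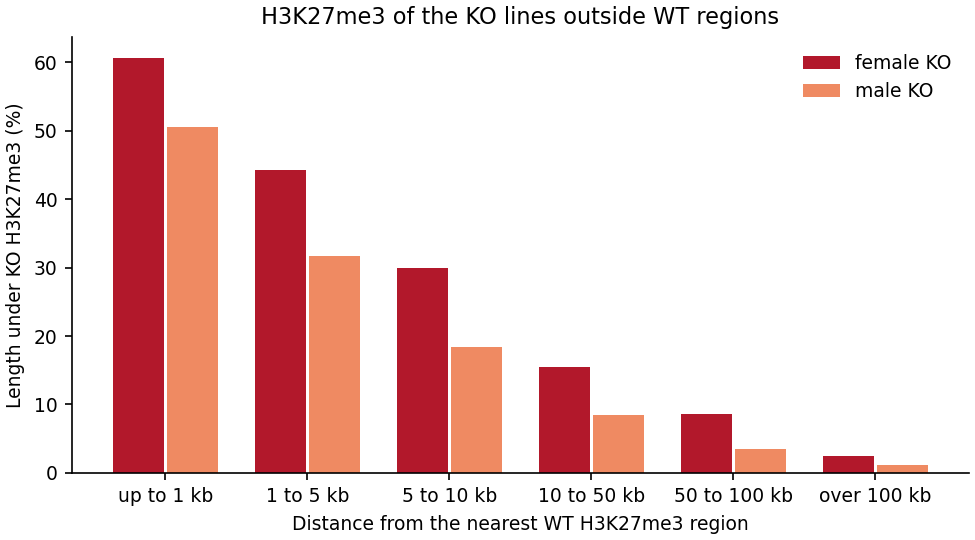
Share of autosomal length under H3K27me3 of each KO line, outside WT regions, by distance from the nearest WT region. The share falls at each step, from 60.7 to 2.49% in female KO and from 50.5 to 1.14% in male KO.

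Neighbouring WT regions were often bridged. In male KO, 4316 regions each overlapped 2 or more WT regions, with 11609 overlaps in all. In female KO, 3956 regions did so, with 14640 overlaps. A WT region that met several such KO regions was counted each time, so these are not counts of distinct WT regions. Regions that overlapped at least 5 WT regions numbered 338 in male KO and 859 in female KO. The reverse also occurred: 1980 WT regions met 2 or more male KO regions, and 498 met 2 or more female KO regions. The male KO region with the most WT members, 23, lay on chromosome 2 from 166382001 to 166584400, a continuous 202.4 kb in both KO lines of which WT covered 134.0 kb. It was followed by the chromosome 4 region from 116962401, with 22, and by chromosome 9 from 42320001 to 42502800, with 20 WT regions over 126.6 of 182.8 kb. In female KO, the region on chromosome 4 from 46663401 to 47074800 spanned 411.4 kb and held 40 WT regions over 152.2 kb and 30 male KO regions over 198.6 kb. It was followed by the chromosome 9 region from 45108801, with 33, and by chromosome 9 from 42295201 to 42620400, with 32. The last contains the male KO region from 42320001.

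Within shared sequence the density of male KO followed that of WT closely, and that of female KO less so. Among 3972 merged regions with at least 5 kb of bins present in all 3 lists, the ratio of reads over those bins to WT was taken, minus its median on the log2 scale. The centred log2 ratio ran from -0.16 to 0.16 between the 25th and 75th percentiles in male KO and from -0.35 to 0.36 in female KO. Past 1.5-fold, 50 regions were higher in male KO (1.26%) and 41 lower (1.03%), 2.29% in all. In female KO, 470 were higher (11.8%) and 408 lower (10.3%), 22.1% in all. With depth-scaled lists, 2.42% passed the limit in male KO and 9.38% in female KO. The fold limit stands in for a test, which 1 library per line does not allow. A region's reads were spread evenly over it, so a KO region that reaches into fainter flanks is averaged down. In 100 merged regions with like borders in the 3 lists, an alternative added after seeing the data, 5% passed the limit in male KO and 24.0% in female KO. The ratio rose with the shared length. For 415 regions with 50 kb or more of shared bins the median was 0.11 in male KO and 0.41 in female KO. For 1556 regions with 5 to 10 kb it was -0.06 and -0.19.

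The 3 highest male KO ratios among 2416 merged regions with at least 10 kb of shared bins were all on chromosome 4. The first, from 119908801 to 120002000, had 13.5 reads per kb of shared bins in WT, 66.5 in male KO and 77.2 in female KO, a centred log2 ratio of 1.98 in male KO and 0.84 in female KO. The others, from 154306401 to 154338800 and from 154227001 to 154304600, had 1.55 and 1.5 in male KO, with 0.92 and 0.51 in female KO. In male KO, H3K27ac covered 34.0, 10.4 and 23.2 kb of these 3 regions, against 0.0, 0.8 and 0.0 kb in WT. In female KO it covered 0.0, 3.6 and 0.0 kb. The 3 lowest male KO ratios were smaller in size, -0.72 on chromosome 1 from 192911001 to 192944600, -0.71 on chromosome 15 from 7752801 to 7776400 and -0.69 on chromosome 1 from 57819801 to 57848200. There, too, H3K27ac covered more in male KO (3.4, 7.2 and 1.4 kb) than in WT (2.4, 0.0 and 0.0 kb). In female KO the highest were 1.36 on chromosome 4 from 129577601 to 129781200, 1.31 on chromosome 4 from 151483801 to 151552000 and 1.25 on chromosome 6 from 118102601 to 118159200. The first of these was 1 region of 203.6 kb in female KO, 8 regions over 188.0 kb in male KO and 7 over 45.4 kb in WT. H3K27ac covered 4.8, 6.4 and 3.6 kb of the 3 in female KO. In male KO it covered 14.4, 0.6 and 0.0 kb and in WT 3.6, 1.0 and 0.0 kb. The lowest female KO ratio, -1.38, lay on chromosome 2 from 44956401 to 44973400, where H3K27ac covered none of it in WT, 5.6 kb in male KO and the whole 17.0 kb in female KO. It was followed by -1.07 on chromosome 8 from 112614601 to 112636800, without either other mark in any line, and by -1.04 on chromosome 3 from 99038401 to 99073800. Of the 35.4 kb spanned there, H3K27me3 covered 31.2 kb in WT, 35.4 kb in male KO and 16.2 kb in female KO, with 12.6 kb common to the 3 lines. H3K27ac covered 7.6 kb in female KO and none in WT.

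Most regions of each list had a close neighbour. The share with another region of the same list within 10 kb was 79.5% in WT (79.0 to 80%), 82.2% in male KO (81.8 to 82.7%) and 77.7% in female KO (77.2 to 78.3%). The male KO difference from WT was 2.70 percentage points and that of female KO -1.77. With depth-scaled lists the differences were -1.83 in male KO, opposite in sign, and -23.5 in female KO, so both depend on the faint regions that this scaling drops. When regions up to 10 kb apart were joined, the groups numbered 8307, 9769 and 9940 in female KO, male KO and WT. Groups of 5 or more regions held 36.9, 52.1 and 47.8% of the regions. The male KO group with the most members, 50, spanned 861.4 kb on chromosome 5 from 111821801 to 112683200. In WT it was a group of 60 over 485.2 kb on chromosome 2 from 27798001 to 28283200. In female KO it was a group of 30 over 907.8 kb on chromosome 4 from 124810401 to 125718200. Joining at 50 kb gave the longest group in male KO, 172 regions over 2178.2 kb on chromosome 15 from 86332001 to 88510200.

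On the scale of 1 Mb the lists had a like layout. Across 2482 windows, Spearman's rho of covered length was 0.884 for male KO and WT, 0.858 for female KO and WT and 0.880 between the KO lines, given as a description, since windows share chromosomes and base composition. The tenth of windows with the most H3K27me3 held 50.5% of its length in WT, 47.0% in male KO and 42.9% in female KO. Windows covered over at least 50% numbered 9, 67 and 163. Windows without any region were also more frequent in the KO lists, 881 in female KO and 855 in male KO against 799 in WT. Covered length was higher than WT in 1224 windows and lower in 576 for male KO, and higher in 1332 and lower in 469 for female KO. A change of at least 100 kb was a gain in 367 windows and a loss in 11 for male KO, and a gain in 711 and a loss in 12 for female KO.

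H3K27ac was almost absent from H3K27me3 regions in WT and was more frequent in them in the KO lines. It overlapped 276 of the WT regions, 1.05% (0.935 to 1.18%), 1704 in male KO, 6.05% (5.77 to 6.33%), and 3569 in female KO, 18.4% (17.9 to 19%). By length, H3K27ac lay over 0.293% of WT H3K27me3, 1.85% in male KO and 6.32% in female KO. The H3K27ac lists covered 4.40, 5.87 and 8.01% of the autosomes in the same order. H3K27ac was thus 15 times rarer under H3K27me3 than over the autosomes in WT, 3.17 times in male KO and 1.27 times in female KO. The order of the lines was the same at equal width. In regions of 20 to 50 kb the overlap was 2.96% in WT (1.95 to 4.49%), 17.0% in male KO (15.3 to 18.8%) and 32.7% in female KO (31.1 to 34.5%). It was also the same over the 101 Mb with H3K27me3 in all 3 lines, where H3K27ac covered 0.325% in WT, 1.46% in male KO and 2.04% in female KO. The densest 50 Mb of each list, an alternative added after seeing the data, gave 0.488, 3.57 and 7.51% of the length. Beside this, the H3K27ac libraries of the KO lines had more reads than WT over shared H3K27ac bins, 2.23 times in male KO and 1.80 times in female KO. The part of this read difference in the result was not tested. The lists describe a population of cells, so an overlap does not show that one stretch of chromatin held both marks.

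**Figure D4:**
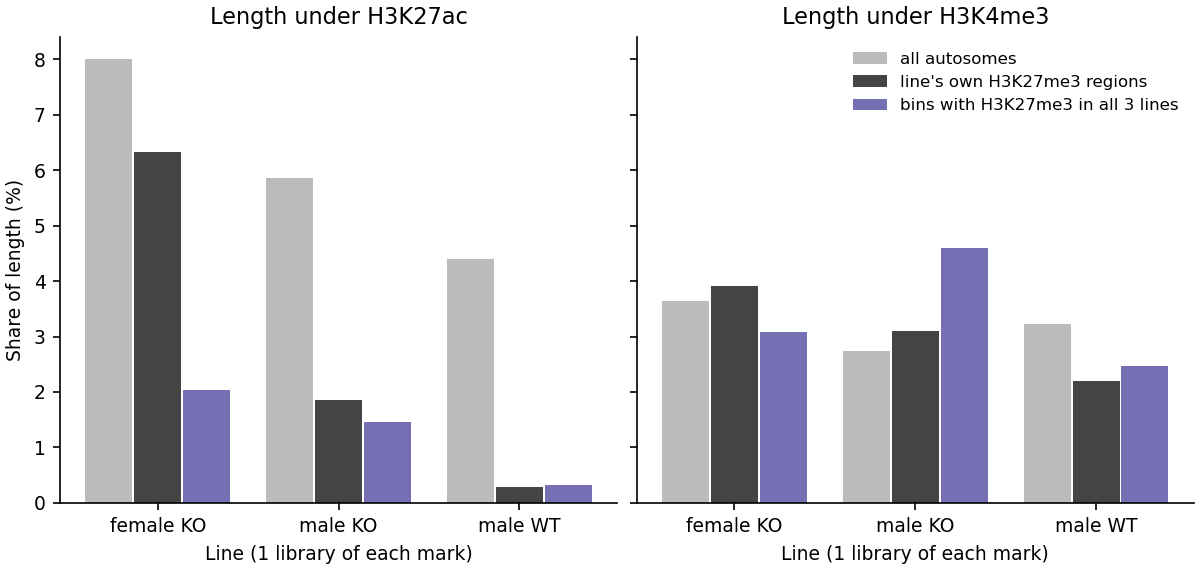
Share of length under H3K27ac (left) and H3K4me3 (right) for each line, over all autosomes, over the line's own H3K27me3 regions and over bins with H3K27me3 in all 3 lines. The WT bars for H3K27ac under H3K27me3 are at 0.293 and 0.325%, against 4.40% of the autosomes.

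H3K4me3 was also more frequent in H3K27me3 regions of the KO lines. It overlapped 5.07% of H3K27me3 regions in WT (4.81 to 5.34%), 10.1% in male KO (9.74 to 10.4%) and 17.0% in female KO (16.5 to 17.5%). By length these were 2.19, 3.11 and 3.92%, against 3.23, 2.73 and 3.64% of the autosomes, a ratio of 0.680 in WT, 1.14 in male KO and 1.08 in female KO. Over bins with H3K27me3 in all lines, male KO had the most, 4.60%, then female KO with 3.08% and WT with 2.48%. The H3K4me3 library of male KO had 0.683 times the WT reads over shared H3K4me3 bins, so there the larger share came with fewer reads. A larger share of wide regions than of narrow ones overlapped H3K4me3 in every line. Width alone favours this, since 1 bp counts as overlap, and the share of length by width class was not computed. H3K4me3 overlapped 19.3% of WT regions of 20 to 50 kb (16.6 to 22.4%), 31.6% in male KO (29.5 to 33.8%) and 30.5% in female KO (28.9 to 32.2%). At 50 to 100 kb these were 36.5% (25.7 to 48.9%), 54.7% (48.8 to 60.5%) and 43.8% (40.5 to 47.1%).

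Among the single regions named here, the most H3K27ac was found in a WT region on chromosome 6 from 52096601 to 52221400. H3K27me3 covered its full 124.8 kb in all 3 lines, at 33.8 reads per kb in WT, 39.3 in male KO and 166.1 in female KO. Each density is a mean over the whole region that the line has there. Of the 124.8 kb, H3K27ac covered none in WT, 3.2 kb in male KO and 69.8 kb in female KO. H3K4me3 covered 1.6, 3.6 and 58.4 kb. By contrast, the chromosome 15 region from 102737201 had no H3K27ac in any line and 2.6, 8.2 and 2.8 kb of H3K4me3 in WT, male KO and female KO. The widest female KO region, on chromosome 11 from 118292201, carried 9.4 kb of H3K27ac in WT, 9.8 kb in male KO and 18.4 kb in female KO. On chromosome 9 from 45108801 the order was reversed, with none in female KO, 13.0 kb in male KO and 18.0 kb in WT. For these 2 female KO regions the lengths are over the whole span, including gaps between the H3K27me3 regions of the other lines. They do not give the overlap with each line's own H3K27me3, so they cannot be set against the shares above.

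Length gained in male KO held less of the other marks than the autosomes outside WT H3K27me3, and length gained in female KO held slightly more. WT H3K27ac covered 1.87% of the male KO gain and 5.57% of the female KO gain, against 4.65% of all autosomal length outside WT H3K27me3. The line's own H3K27ac covered 2.26% of the male KO gain, against 6.13% of that length, and 8.70% of the female KO gain, against 8.38%. For H3K4me3 in WT these were 1.96 and 4.30%, against 3.29%. Of the regions without a WT counterpart, 4.83% overlapped H3K27ac in male KO (4.48 to 5.20%), under the 7.18% of male KO regions that met WT (6.77 to 7.61%). In female KO the order was the other way, 20.3% (19.5 to 21.0%) against 16.4% (15.6 to 17.1%).

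Chromosomes differed in how much H3K27me3 was gained, and chromosome 4 stood apart. H3K27me3 covered 1.60% of chromosome 4 in WT, the lowest of the 19 autosomes, 8.23% in male KO and 15.5% in female KO, which is 5.15 and 9.68 times WT. On the other chromosomes male KO ranged from 0.976 times WT on chromosome 19 to 2.76 times on chromosome 14. Female KO ranged from 1.47 times on chromosome 5 to 3.84 times on chromosome 16. Covered length was above WT on 18 of 19 chromosomes in male KO and on 19 in female KO. WT regions were absent from male KO most often on chromosomes 1 (42.0%) and 19 (40.4%) and least on chromosome 11 (11.6%). From female KO they were absent most often on chromosome 12 (44.4%) and least on chromosome 4 (3.46%).

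Read ratios by chromosome mostly had the same sign in the 3 marks. On chromosome 4, H3K27me3 reads over shared bins were above the autosomal ratio by 0.29 on the log2 scale in male KO and 0.47 in female KO. H3K4me3 was above by 0.20 and 0.33, and H3K27ac by 0.14 and 0.37. On chromosome 1 all 3 marks lay below, at -0.18, -0.12 and -0.14 in male KO and -0.17, -0.13 and -0.16 in female KO. Across the 19 autosomes the H3K27me3 ratio of male KO to WT had a Spearman's rho of 0.925 with that of H3K4me3 and 0.877 with that of H3K27ac. The sign was the same on 16 and 18 of 19. For female KO rho was 0.537 and 0.639, and the sign was the same on 14 and 13. They are given as a description, since the ratios of the marks come from the same pair of lines. Without chromosome 4 they were 0.911, 0.862, 0.455 and 0.575. What sets a level common to the marks was not tested, so a ratio of H3K27me3 by chromosome is not shown to be particular to that mark. Leaving out chromosome 4 kept the N50 at 1.59 and 4 times WT.

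**Figure D5:**
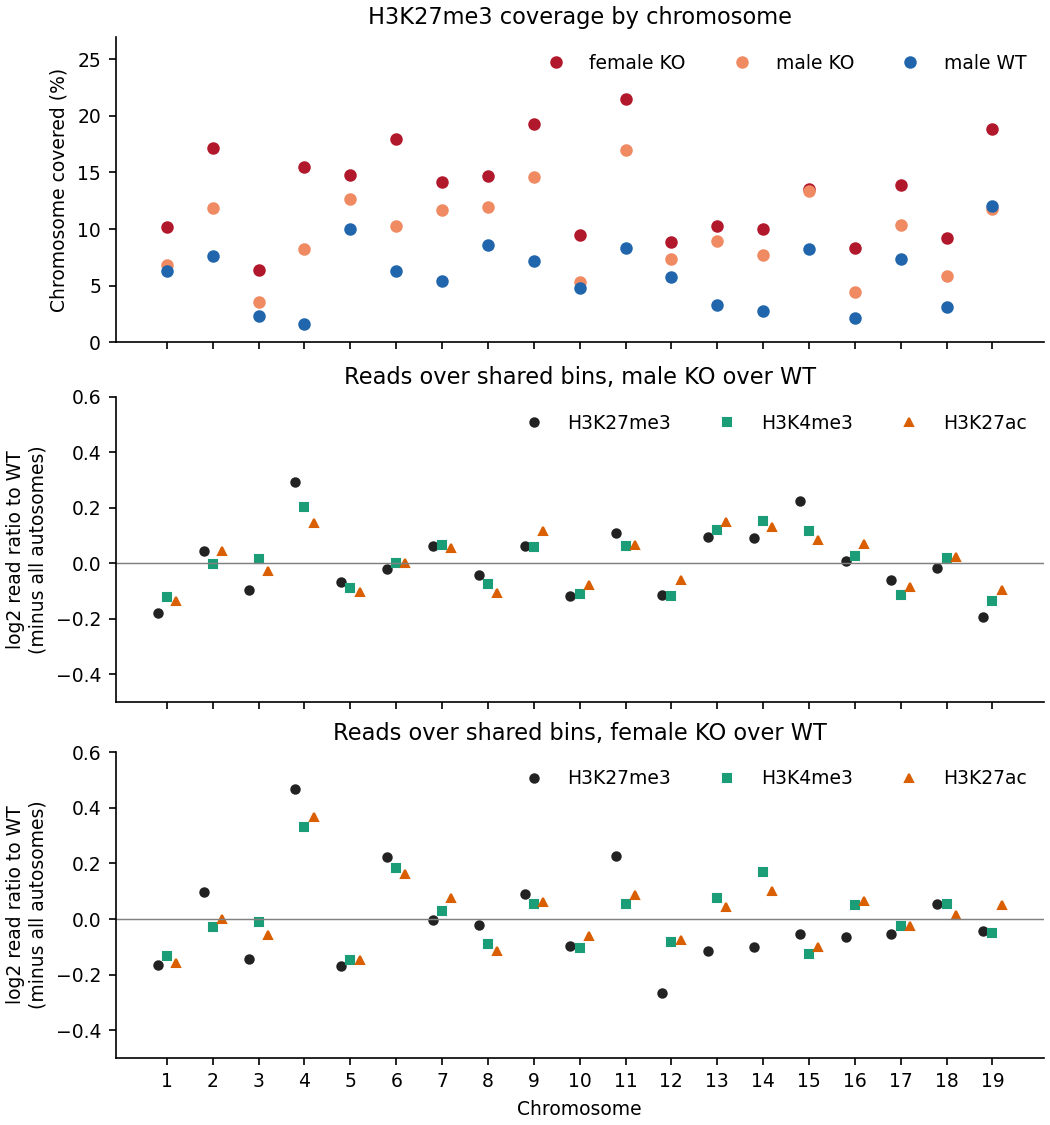
Top, share of each autosome covered by H3K27me3 in the 3 lines. Below, log2 ratio of reads over shared bins to WT, minus the value over all autosomes, for the 3 marks in male KO and in female KO. On chromosome 4 WT coverage is lowest, 1.60%, and all 3 marks lie above 0 in both KO lines.

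The windows of 1 Mb with the largest gains were mostly on chromosome 4. On chromosome 4 from 119000001 to 120000000, H3K27me3 covered 32.6 kb in WT, 799.2 kb in male KO and 709.6 kb in female KO. Male KO had 40.4 reads per kb there, against a median of 16.6 over its list, and H3K27ac covered 11.6 kb in WT, 35.4 kb in female KO and 280.2 kb in male KO. On chromosome 4 from 154000001 to 155000000, the third largest gain of male KO, the H3K27me3 values were 69.2, 564.0 and 657.2 kb, with 64.8, 471.0 and 220.0 kb of H3K27ac. The second largest gain of male KO lay on chromosome 2 from 172000001 to 173000000, with 169.0 kb in WT, 723.0 kb in male KO and 716.2 kb in female KO. There, the density of male KO, 22.8 reads per kb, was near the median of its regions of 20 to 50 kb, 22.3. The other female KO windows lay on chromosome 4 from 125000001 to 126000000 (699.0 kb, against 161.4 kb in male KO and 27.2 kb in WT) and from 140000001 to 141000000 (657.8, 150.6 and 27.6 kb). H3K27ac covered 54.0 and 111.4 kb of these windows in WT, 74.6 and 126.2 kb in male KO and 191.8 and 294.0 kb in female KO. The largest loss of both KO lines was on chromosome 1 from 160000001 to 161000000, with 334.0 kb in 77 WT regions, 61.2 kb in male KO and 11.6 kb in female KO. The WT density there, 14.4 reads per kb, was close to the WT median. The other male KO losses were on chromosome 1 from 161000001 to 162000000 (165.8 kb in WT, 0.0 in male KO and 105.2 in female KO) and on chromosome 5 from 75000001 to 76000000 (421.8, 274.2 and 637.4 kb). Those of female KO were on chromosome 12 from 30000001 to 31000000 (264.4 kb in WT, 289.4 in male KO and 11.2 in female KO) and on chromosome 1 from 156000001 to 157000000 (349.4, 452.6 and 123.6 kb). In 3 of these 5 windows of loss the other KO line was above WT.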

How the data were processed

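H3K27me3, H3K4me3 and H3K27ac were profiled by ChIP-seq in 3 lines, 1 library each. Per the submitters' processing notes, Bowtie 1.1.2 and SICER 1 were used on build mm9. The authors deposited 1 list per library with chromosome, start, end and a whole number, which served as the read count of the region. The control, the false discovery rate and the read totals are not stated in the sources used here. Group labels came from the sample titles.

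Autosomal regions were placed on bins of 200 bp, with coordinates 1-based. Counts were spread evenly over their region. Overlap means at least 1 bp. Shared bins are present in all 3 lists of a mark. Shares carry 95% Wilson intervals. Python 3.11.15, numpy 2.4.6, pandas 2.3.3, scipy 1.17.1, matplotlib 3.10.9 and mm9 chromosome lengths from GenomeInfoDb 1.38.1 were used. The procedure was tested on lists with planted changes.

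Regions were named by rule: the 3 widest and the 3 densest per list (at least 5 kb), the 3 highest and 3 lowest density ratios (at least 10 kb shared), the 3 KO regions with most WT regions, the 3 absent WT regions with most reads, and the 3 windows of 1 Mb with the largest gain and loss. Members and comparisons were chosen with earlier results of these data known.

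Alternatives were depth-scaled KO lists, merging of regions closer than 2 kb, lists without counts under their median, chromosome 4 left out, and other limits of overlap, distance and fold. Sequences were not used here.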

Additional observations from a re-analysis of the deposited data

Results flagged for a closer look

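The 2 KO lines moved in opposite directions from WT in several results, and none of these differences was tested, since each line had 1 library. The share of regions with a neighbour within 10 kb was 2.70 percentage points above WT in male KO and at -1.77 in female KO. The log2 H3K27me3 read ratio to WT over shared bins, minus that of all autosomes, had opposite signs on 7 chromosomes. In male KO and female KO it was -0.019 and 0.22 on chromosome 6, 0.061 and -0.0022 on chromosome 7, 0.095 and -0.11 on chromosome 13, 0.090 and -0.10 on chromosome 14, 0.22 and -0.054 on chromosome 15, 0.0075 and -0.066 on chromosome 16, and -0.016 and 0.056 on chromosome 18. The merged region on chromosome 1 from 192911001 had a centred log2 ratio of -0.72 in male KO and 0.23 in female KO. Covered length differed from WT by -147.6 kb in male KO and 215.6 kb in female KO in the window on chromosome 5 from 75000001. It differed by 25 and -253.2 kb on chromosome 12 from 30000001 and by 103.2 and -225.8 kb on chromosome 1 from 156000001.

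The sex chromosomes were outside the comparison, and H3K27me3 regions above the WT number were found there. On X there were 48 regions in WT, 74 in male KO and 1965, over 16.0 Mb, in female KO, while H3K4me3 regions on X numbered 506, 545 and 482. On Y there were 5 regions in male KO and 0 in the other lines.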

How the results depend on the processing

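No paired analysis was possible because each line had 1 library. The cause of the changes below was not tested. Values are for male KO, then female KO, and differences from WT are in percentage points. With the densest 50 Mb of each list, added after seeing the data, the N50 was 2.78 and 6.34 times WT. The neighbour share within 10 kb then differed by -12.2 (opposite in sign to 2.70) and -22.5, overlap with H3K27ac by 20.1 and 56.0, overlap with H3K4me3 by 35.6 and 51.9, and length under H3K27ac by 3.09 and 7.02.

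With lists at or above their median count, 23.0 and 22.2% of WT regions were absent, extensions held 39.97 and 50.2% of gained length, and 2147 and 2178 regions joined WT regions. Density shifts fell to 19.3% in female KO. The neighbour share differed by 1.24 and -7.06, overlap with H3K27ac by 3.55 in male KO, with H3K4me3 by 2.43 and 10.3, and length under H3K27ac by 0.920 and 4.46. With regions closer than 2 kb merged, 28.3 and 30.8% were absent, extensions held 54.6 and 60.1%, and 2287 and 2480 joined. The neighbour share differed by 1.31 and -7.59, overlap with H3K27ac by 6.82 and 22.3, with H3K4me3 by 7.34 and 16.1, and length under H3K27ac by 1.56 and 6.05.

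With depth-scaled lists, 33.5 and 55.2% were absent and extensions held 51.2 and 68.4%. In female KO the N50 was 7.86 times WT, 2268 regions joined WT regions and 9.38% of densities shifted. The neighbour share differed by -1.83 (opposite in sign) and -23.5, overlap with H3K27ac by 6.52 and 37.2, with H3K4me3 by 7.95 and 33.1, and length under H3K27ac by 1.81 and 7.41. Without chromosome 4, extensions held 45.7 and 52.6% and length under H3K27ac differed by 1.27 and 5.96. There, 1.73% of densities shifted in male KO and 26.8% of WT regions were absent from female KO. An overlap of 50% made 30.1 and 28.2% absent. Counting all gained length of KO regions that lay within 5 kb of a WT region gave 56.4 and 56.5% as extension. Past 2-fold, 0.327 and 1.84% of densities shifted. In regions with like borders, 5 and 24.0% shifted past the main limit of 1.5-fold. A distance of 20 kb gave a neighbour difference of 1.49 in male KO. With the other mark within 5 kb, overlap with H3K27ac differed by 8.42 and 22.3 and with H3K4me3 by 6.47 and 13.9. Reads are known only within regions, which limits every comparison of covered length.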

Other observations

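Seen from the active side, H3K27me3 reached the H3K27ac regions that the lines have in common in female KO more than in the other lines. Over the 76.9 Mb with H3K27ac in all 3 lines, H3K27me3 covered 0.220% in WT, 1.07% in male KO and 6.93% in female KO. Over the 55.8 Mb with H3K4me3 in all 3 lines it covered 3.68, 5.37 and 12.9%. The H3K27me3 lists covered 5.85, 9.60 and 13.3% of the autosomes. Bins with H3K27ac in all lines thus carried less H3K27me3 than the autosomes at large in each line, and bins with H3K4me3 carried a share near the autosomal one in female KO and below it in the male lines.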
